A study of Mus musculus with 38 samples.

Results

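H3K27ac, the acetylated histone mark of active enhancers and promoters, was compared between the first and the second week after SOX9 was switched on in mouse epidermal stem cells (EpdSCs). The members are the 32544 H3K27ac peaks called at week 1 (W1) and the 29081 called at week 2 (W2), 61625 of the 156394 peaks in all 5 H3K27ac lists of the series. Each list was divided by whether a peak overlapped any peak of the other list by at least 1 bp. A W2 peak without such an overlap is called W2-only, a W1 peak without one W1-only, and the rest shared.

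The animals were male mice of genotype K14rtTA; TRE-myc-Sox9. The *Krt14* promoter, active in the basal layer of the epidermis and the outer root sheath of the hair follicle, drives the doxycycline (DOX)-dependent activator rtTA in them. With DOX, rtTA turns on a MYC-tagged *Sox9* transgene behind a tetracycline-responsive element with a minimal promoter. DOX was first given at postnatal day 21 and then in the feed, so W1 and W2 differ by a week of age as well as of induction, and these cannot be told apart. EpdSCs were sorted from back skin as cells without CD31, CD45, CD117, CD140a and CD34 and with high CD49f (the integrin encoded by *Itga6*) and high Ly6A. Histone marks were read by MINT-ChIP, in which chromatin of several samples is cut with micrococcal nuclease (MNase), barcoded and pooled before the antibody is added. The W1 list rests on 2 samples, a high and a low MNase digest that each hold both replicates. The W2 list rests on 2 samples of replicate 2 and on 2 samples that carried W2 replicate 1 together with both replicates of week 12 (W12, SOX9 induced in grafted skin), told apart by barcode. No sample held both W1 and W2. The weeks therefore also differ by the pool in which they were read, and this cannot be told apart from time. Because every list pools its replicates, there is no spread between replicates and no test was made. The main shares are given with their exact binomial interval at 95% (Clopper-Pearson). Such an interval holds the counting error alone and takes neighbouring peaks as independent.

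SOX9 is a transcription factor of the hair follicle stem cell and the outer root sheath, and adult EpdSCs between follicles do not normally make it. It belongs to the pioneer factors, which can bind sites wrapped in nucleosomes. H3K4me1 marks enhancers that are primed or active, and H3K27ac is added when they become active. Acetylation falls when coactivators leave or deacetylases act, so that a switch of cell fate can show as gains at some enhancers and losses at others.

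Some windows are shown first because the results turn on these loci: the strongest W2-only peak near *Sox9*, *Nfib* and *Lhx2*, which are hair follicle transcription factors, and the strongest W1-only peak near *Krt10* and *Krt1*, which encode the keratins of differentiating epidermis. Each line gives 200 bp around the summit, on the plus strand of GRCm38.p6 (RefSeq), the build of the lists. Capitals mark SOX letters (ACAATG or ACAAAG on either strand). None of these windows held the AP1 letters TGANTCA, and no match says only that the letters are not in the window. The windows are chr11:112661919-112662118 (*Sox9*), chr4:82542434-82542633 (*Nfib*), chr2:38379280-38379479 (*Lhx2*), chr11:99391278-99391477 (*Krt10*) and chr15:101857007-101857206 (*Krt1*).
*Sox9*, W2-only: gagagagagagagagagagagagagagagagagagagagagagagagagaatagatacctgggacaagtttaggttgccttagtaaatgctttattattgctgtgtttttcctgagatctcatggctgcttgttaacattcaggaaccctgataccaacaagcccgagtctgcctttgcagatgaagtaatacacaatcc
*Nfib*, W2-only: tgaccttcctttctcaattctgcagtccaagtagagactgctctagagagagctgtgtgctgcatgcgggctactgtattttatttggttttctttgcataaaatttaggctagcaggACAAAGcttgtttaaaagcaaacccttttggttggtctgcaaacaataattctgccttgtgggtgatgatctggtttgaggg
*Lhx2*, W2-only: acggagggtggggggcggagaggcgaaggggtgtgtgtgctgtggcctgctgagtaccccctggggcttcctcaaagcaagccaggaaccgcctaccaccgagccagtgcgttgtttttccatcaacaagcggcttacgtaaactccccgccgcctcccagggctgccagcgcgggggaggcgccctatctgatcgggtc
*Krt10*, W1-only: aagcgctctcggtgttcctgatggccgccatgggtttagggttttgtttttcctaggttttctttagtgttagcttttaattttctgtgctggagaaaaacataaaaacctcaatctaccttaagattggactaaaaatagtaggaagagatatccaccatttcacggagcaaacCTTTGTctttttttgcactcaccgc
*Krt1*, W1-only: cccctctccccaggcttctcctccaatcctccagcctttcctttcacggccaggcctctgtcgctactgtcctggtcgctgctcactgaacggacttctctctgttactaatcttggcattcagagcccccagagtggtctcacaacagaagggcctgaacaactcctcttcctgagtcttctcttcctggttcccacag

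The label of the cells was checked on their own peaks. All 21 basal layer and adhesion genes, among them *Krt5*, *Krt14*, *Itga6* and *Col17a1*, had an H3K27ac peak within 1000 bp of a start site at W1 and at W2. Of the markers of other skin cells, none of 7 immune, 6 fibroblast, 3 Merkel or 4 muscle genes had one at either week. Of 6 endothelial genes *Tek* had one at W1 only, and of 6 melanocyte genes *Pmel* had one at both weeks and *Dct* at W1 only. *Cd34*, a gene of the antigens sorted against, had no such peak at either week, but 5 W2 peaks lay nearest to it against 2 at W1, and 4 of the 5 were W2-only with folds up to 8.42. Nearest to the genes of these other cells lay 7 peaks at W1 and 4 at W2 for immune, 14 and 9 for endothelial, 8 and 5 for fibroblast, 17 and 14 for melanocyte, 1 and 0 for Merkel and none for muscle genes. Nearest to all 21911 protein-coding genes lay 32544 peaks at W1 and 29081 at W2. Per gene, the endothelial and melanocyte lists thus had no fewer peaks than genes at large. Of the endothelial peaks 9 at W1 and 8 at W2 lay nearest to *Pecam1*, the gene of CD31, which was also sorted against. Of the other antigens sorted against, *Ptprc* (CD45) had 5 and 2 peaks, *Pdgfra* (CD140a) 1 and 0, and *Kit* (CD117) none. The part of other cells in the results below was not tested. In bulk chromatin, fewer cells with a mark and less of the mark per cell cannot be told apart.

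Between W1 and W2 both lists exchanged a large minority of their peaks. Of the W2 peaks 10122 were W2-only, which is 34.8% (34.3% to 35.4%), and 18959 were shared. Of the W1 peaks 12046 were W1-only, which is 37.0% (36.5% to 37.5%), and 20498 were shared. The unshared peaks covered little sequence: the W2-only peaks held 6.27 Mb of the 32.1 Mb of the W2 list, and the W1-only peaks 6.38 Mb of the 29.3 Mb of the W1 list. Of the bases covered at either week, a fraction of 0.424 was covered at both. Which share is larger depended on how weak peaks were treated. With only peaks of −log10 q of at least 2 it was 34.5% of W2 peaks against 32.7% of W1 peaks, and with lists of equal length 36.7% against 32.1%. By chromosome the W2-only share ran from 30.4% on chromosome 7 to 40.3% on X, apart from Y, where 12 of 16 W2 peaks were W2-only.

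The unshared peaks were narrow and weak. Fold is the enrichment over background in the deposited lists. W2-only peaks had a median width of 505 bp and a median fold of 4.91, against 1107 bp and 7.72 for shared W2 peaks. W1-only peaks had medians of 443 bp and 3.85, against 872 bp and 6.16 for shared W1 peaks. With each list cut into 5 equal bins by fold, 69.0% of peaks in the lowest bin of the W2 list were W2-only and 2.37% of those in the highest. The same shares of the W1 list were 73.0% and 1.92%. Among peaks of 2000 bp and over, 55 of 3421 at W2 and 27 of 2348 at W1 were unshared. Strong, wide peaks were thus almost always present at both weeks.

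**Figure D1:**
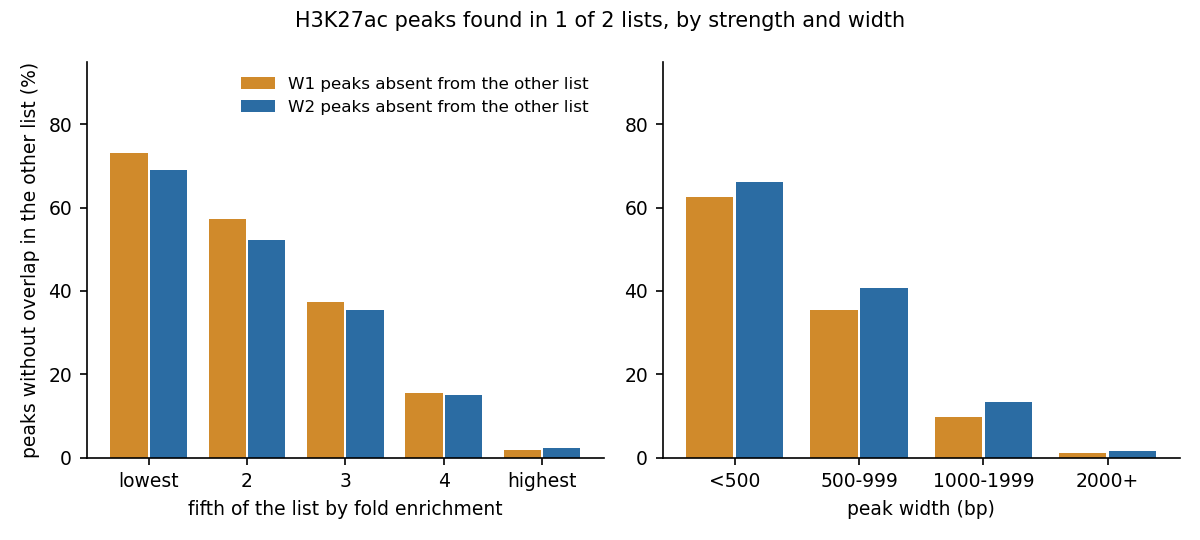
Percentage of H3K27ac peaks with no overlap in the other list, for W1 (orange) and W2 (blue), in 5 equal bins of the list by fold enrichment (left) and by peak width in bp (right). The share falls from 73.0% (W1) and 69.0% (W2) in the lowest bin to 1.92% and 2.37% in the highest.

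Depth differed between the lists and bears on these counts. The background pileup recovered from the steps of the folds was 0.299 at W1 and 0.425 at W2, and the smallest pileup that was called was 3 at W1 and 4 at W2. Scaled by background to the depth of W1, 87.5% of the W2-only peaks (86.9% to 88.2%) had the pileup of the smallest W1 peak, and 14.0% had 2 times that pileup. Scaled to the depth of W2, all 12046 W1-only peaks had the pileup of the smallest W2 peak, and 18.9% had 2 times that pileup. That all W1-only peaks passed was set by the limits, because a W1 pileup of 3, so scaled, already passes 4. It therefore says nothing of the part of depth in the W1-only peaks. The 87.5% was largely set by the limits too, because only W2-only peaks near the smallest W2 pileup, so scaled, fall below 3. It therefore says little of the part of depth in the W2-only peaks. A fold at W1 and a fold at W2 are therefore not on an equal footing. Folds of unshared peaks are read within their own list, and ratios of folds between the lists carry the difference in depth. Of the W2-only peaks 24.1% lay within 1000 bp of a W1 peak, and the median gap to the nearest W1 peak was 5665 bp. The W1-only peaks were alike in this, with 24.6% within 1000 bp of a W2 peak and a median gap of 5724 bp.

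Most unshared peaks lay away from genes' starts, in introns and between genes. More than 2500 bp from any start site lay 74.3% of the W2-only peaks (73.4% to 75.1%) and 77.0% of the W1-only peaks (76.2% to 77.7%), against 47.8% of the shared W2 peaks and 48.4% of the shared W1 peaks. A start site was covered by 8.34% of the W2-only and 4.73% of the W1-only peaks, and by 38.2% of the shared W2 peaks. Summits fell in introns for 57.5% of the W2-only and 62.6% of the W1-only peaks, and between genes for 34.6% and 29.4%. The median GC content of 200 bp around the summit was 47.5% in W2-only and 48.0% in W1-only peaks, against 52.0% in shared W2 peaks.

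Shared peaks were on the whole wider at W2, the deeper list, and the part of depth in this was not tested. In 15512 pairs in which 1 W1 peak overlapped 1 W2 peak and no other, the W2 peak was the wider in 59.6%, and the median width went from 886 bp to 1034 bp. The fold was higher at W2 in 71.7% of pairs, with a median log2 ratio of 0.28. Relative to that median, 370 pairs were more than 2-fold higher at W2 and 318 more than 2-fold lower. Fused peaks outnumbered split ones, again with the deeper list at W2: 2103 W2 peaks spanned 2 or more W1 peaks, and 766 W1 peaks spanned 2 or more W2 peaks. Pairs were ranked by the ratio, whose order may itself depend on depth. The pair highest at W2 lay in an intron 102 kb from the start of *Tacc1*, which encodes a centrosomal protein. It had a fold of 3.08 over 423 bp at W1 and 16.1 over 3397 bp at W2, a log2 ratio of 2.39 against the median of 0.28. A peak 45.2 kb from *Socs3*, which encodes an inhibitor of cytokine signalling, had folds of 3.85 and 16.8. The pair lowest at W2 lay in an intron 30.9 kb from the start of *Ddr2*, which encodes a collagen receptor, with folds of 10.8 and 3.51 and a log2 ratio of -1.62. Near *Rgs3*, *Pkia*, *Stk38l* and *Kazn* shared peaks had folds between 10.01 and 14.6 at W1 and between 3.51 and 4.91 at W2. In each of these pairs the lower fold was below the median of its list (5.39 at W1, 6.315 at W2). The folds of 3.08 at W1 and 3.51 at W2 correspond to the smallest called pileup of their list. These ratios thus rest on weak calls.

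The other time points show what the unshared peaks were before and after. Of the W2-only peaks 26.8% (25.9% to 27.6%) overlapped a peak of uninduced skin (D0), and of the W1-only peaks 28.8% (28.0% to 29.6%). At week 6 (W6) a peak lay on 38.8% of the W2-only peaks (37.8% to 39.7%) but on 22.4% of the W1-only peaks (21.7% to 23.2%). At W12 it was 22.1% against 14.6%. For comparison, 77.7% of shared W2 peaks lay on a D0 peak, 84.2% on a W6 peak and 63.3% on a W12 peak. W2 replicate 1 shared its libraries with W12, and the part of this in the W12 shares was not tested. The W6 list is also the deepest, with a background pileup of 0.677.

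The W2-only peaks therefore fall into several kinds. Absent at D0 and W1 and present at W6 or W12 were 2755 of them (27.2%), with a median fold of 4.91, and 73.1% of these were distal. Present at D0 and again at W6 or W12, so that acetylation was called before and after W1, were 1960 (19.4%). Those were the strongest, with a median fold of 5.61 and a median width of 648 bp, and 54.9% of them were distal. Called in no other list were 4658 (46.0%), with a median fold of 4.21. Of the W1-only peaks 1679 (13.9%) were present at D0 and in no later list, 1819 (15.1%) were absent at D0 and came back at W6 or W12, and 6759 (56.1%) were called in no other list.

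**Figure D2:**
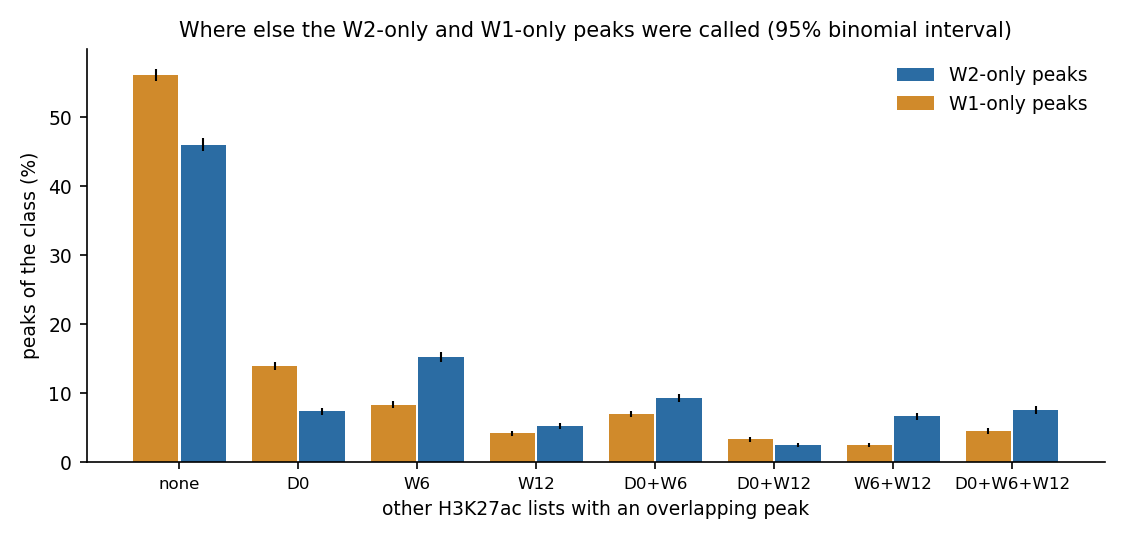
Percentage of W2-only (blue) and W1-only (orange) peaks by which of the D0, W6 and W12 H3K27ac lists also held an overlapping peak, with exact 95% binomial intervals. Peaks also called at W6 alone made up 15.2% of the W2-only and 8.31% of the W1-only peaks, and peaks also called at D0 alone 7.40% and 13.9%.

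Most unshared peaks of either class lay on an H3K4me1 domain at D0, W1 and W2. Of the W2-only peaks 88.4% lay on an H3K4me1 domain of D0, 91.0% (90.4% to 91.6%) on one of W1 and 94.2% on one of W2, while W1 domains covered 9.67% of the genome. Of the W1-only peaks 91.3% lay on an H3K4me1 domain of D0 and 91.8% on one of W1. At W2 88.9% of them (88.4% to 89.5%) still lay on one. A domain called before W2 was thus no more common under W2-only than under W1-only peaks. Shared W2 peaks lay on W1 domains in 96.4% of cases. Domains that came and went with the peaks were few: 465 W2-only peaks (4.59%) were on a domain at W2 and not at W1, and 147 (1.45%) on one at W1 and not at W2. Among the W1-only peaks 550 (4.57%) were on a domain at W1 and not at W2, and 207 (1.72%) the other way round. On neither were 444 W2-only and 782 W1-only peaks.

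Motif letters were searched in 200 bp around each summit on both strands, beside windows of the same length 2000 bp to either side. Among distal peaks the AP1 letters TGANTCA, bound by FOS and JUN, were in 7.18% of W2-only peaks (6.61% to 7.79%) and 7.13% of W1-only peaks, against 6.20% and 6.08% of the flanking windows. The SOX letters were in 26.6% of W2-only and 26.0% of W1-only peaks, against 26.3% of flanking windows in both cases. The TEAD letters GGAATG were in 12.2% of W2-only peaks (11.5% to 13.0%) and 10.7% of W1-only peaks (10.1% to 11.3%), against 11.0% and 10.3% of flanking windows. Acetylated nucleosomes lie beside the site a factor binds, so a window of 500 bp was the alternative. In it AP1 letters were in 22.7% of distal W2-only peaks (21.7% to 23.7%), 19.3% of distal W1-only peaks (18.5% to 20.1%), 24.0% of distal shared W2 peaks and 22.6% of distal shared W1 peaks, against 14.9% of flanking windows of distal W2-only and of distal W1-only peaks. TEAD letters were in 29.0% and 26.8% of the distal W2-only and W1-only peaks, against 25.2% and 24.3%. KLF letters (GGGNGTG) were in 30.3% and 29.8%, against 26.5% and 26.8%. SOX letters were in 55.1% and 53.9%, against 54.0% and 53.5%. RUNX letters (TGTGGT) were in 33.9% and 34.9% over flanks of 33.5% and 35.2%. Letters of GATA factors (AGATAA) were in 25.1% and 25.5%, against 26.7% and 26.1%. Letters of p63 (a pair of CATG cores 6 bases apart) were in 2.30% and 2.11%, of ETS (CCGGAAG) in 2.34% and 2.32%, and of NFI (the palindromic motif with its spacer) in 0.09% and 0.06%. A match to such short letters is not a bound site.

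**Figure D3:**
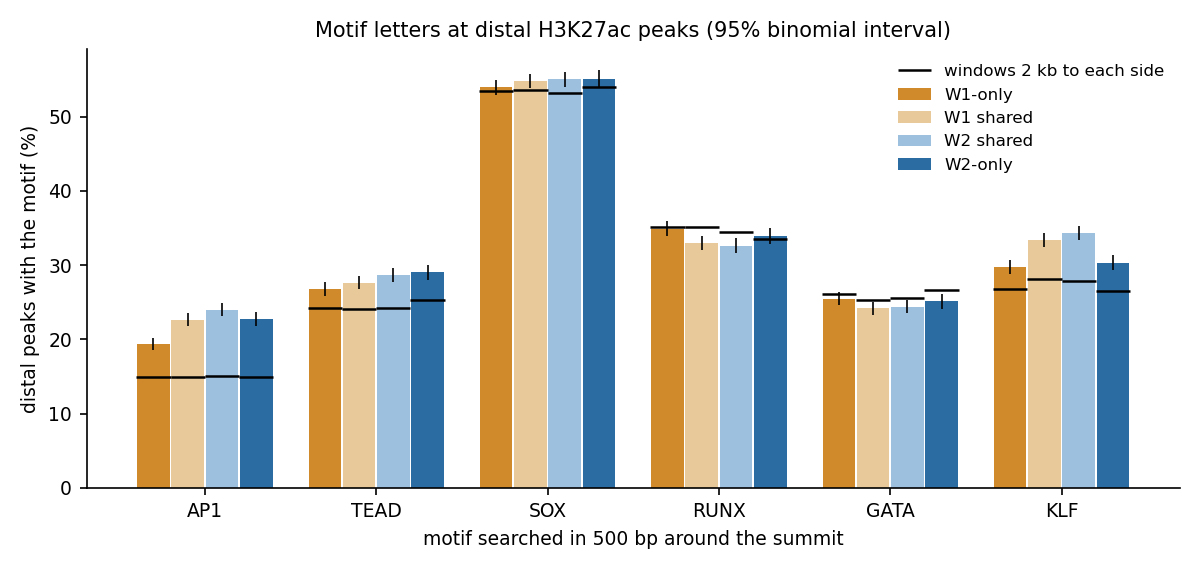
Percentage of distal H3K27ac peaks with each motif's letters in 500 bp around the summit, by class, with exact 95% binomial intervals; black lines are windows of the same length 2000 bp to either side. AP1 letters stand at 22.7% in W2-only and 19.3% in W1-only peaks over flanks of 14.9%, while SOX letters stay close to their flanks.

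Genes were tied to peaks by the nearest protein-coding start site, which need not be the gene a peak acts on. Of 12440 genes with a peak nearest, 5130 had a W2-only peak, 5826 a W1-only peak and 2875 both. In 22 gene lists, 325 genes of the annotation were followed. The list with the highest W2-only share was hair follicle transcription factors: 160 of its 292 W2 peaks were W2-only, 54.8% (48.9% to 60.6%) against 34.8% of all W2 peaks, and 21 of its 27 genes had at least 1. Without *Sox9*, and without *Sox9* and *Nfib*, which were left out after their values were seen, it was 52.5% and 50.7%. Its W1-only share was 43.8% (37.7% to 50.1%), 114 of 260 peaks, against 37.0%, and 23 of its 27 genes had at least 1 W1-only peak. Hair follicle stem cell and outer root sheath markers followed with 49.2% (40.4% to 58.1%) W2-only and 40.6% W1-only. The median fold of the W2-only peaks was 4.91 in both lists, as over all W2-only peaks. Weak peaks were nonetheless more common near these genes. Above the median fold of the W2 list lay 93 of the 292 W2 peaks of the transcription factors and 49 of the 130 of the markers. Of all 29081 W2 peaks it was 13179. The part of peak strength in the W2-only shares was not tested. Among W2 peaks above the median fold of their list, 25.8% (17.3% to 35.9%) of those of hair follicle transcription factors were W2-only, against 10.9% of all such peaks, and 18.4% of those of the marker list. Among W1 peaks above the median fold it was 13.1% and 7.14%, against 8.14% of all such peaks.

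**Figure D4:**
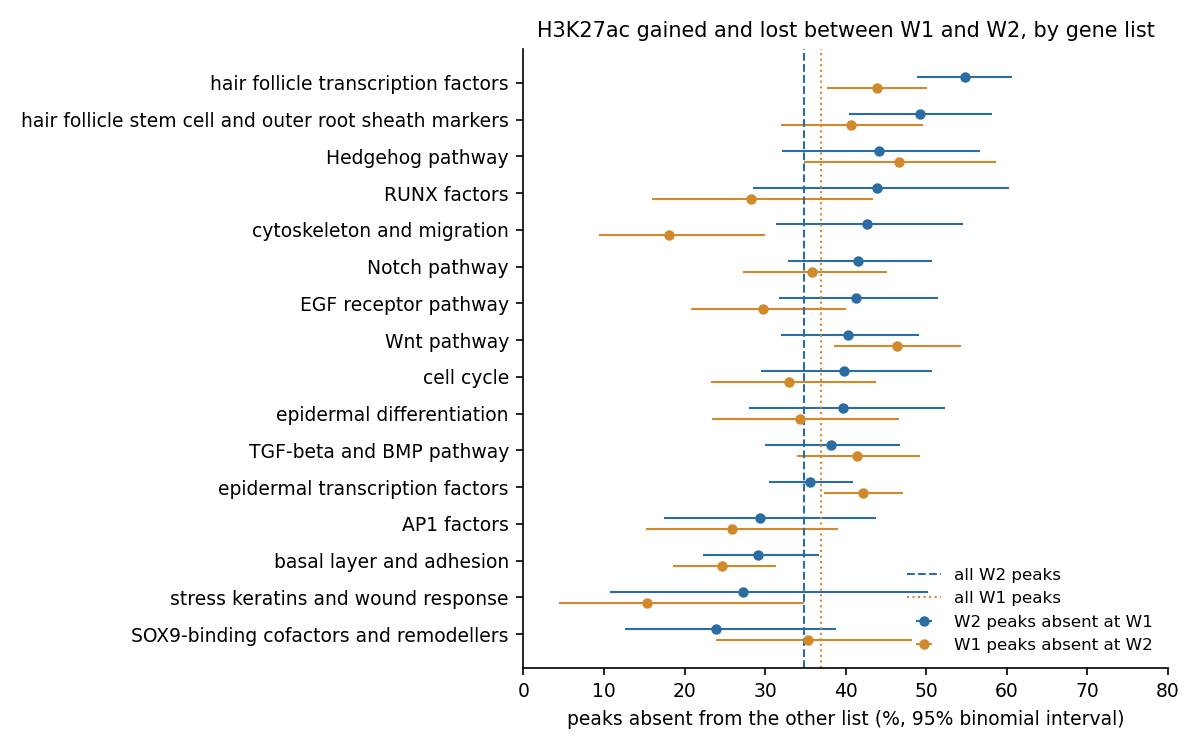
Percentage of W2 peaks absent at W1 (blue) and of W1 peaks absent at W2 (orange) among peaks nearest to the genes of each list with at least 20 peaks at each week, with exact 95% binomial intervals. The dashed and dotted lines are all W2 peaks (34.8%) and all W1 peaks (37.0%). Hair follicle transcription factors lie farthest right for W2 (54.8%), and cytoskeleton and migration genes have 42.7% against 18.0%.

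*Sox9* itself (ENSMUSG00000000567, chr11:112782224-112787760) had 24 peaks nearest at W1 and 33 at W2, which covered 17.8 kb and 37.3 kb. Of the W2 peaks 24 were W2-only, all more than 2500 bp from a start site and all on an H3K4me1 domain at W1. Of them 6 were also called at D0, 6 at W6 and 6 at W12. The strongest, chr11:112660841-112662633, lay 120 kb from the start with a fold of 15.4 and was called at D0, W6 and W12, so that the W1 list alone lacked it. The next, chr11:112767627-112768291, lay 13.9 kb from the start with a fold of 10.5. Of the W1 peaks 14 were W1-only, with folds up to 5.59 where the median fold of the W1 list was 5.39, and 1 of the 14 was called at D0. The peak at the start site itself was at both weeks, with a fold of 28.5 over 3209 bp at W1 and 24.6 over 5004 bp at W2. A peak within 1000 bp of a start site of *Sox9* was also called at D0, before DOX. Reads of the transgene that match the locus would align to it as well.

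*Nfib*, which encodes a nuclear factor of hair follicle stem cells, had the most W2-only peaks of any gene. It went from 37 peaks over 38.8 kb to 56 peaks over 63.6 kb, with 33 W2-only and 13 W1-only, while the highest fold was 16.2 at W1 and 16.1 at W2. Of its 33 W2-only peaks 30 were on an H3K4me1 domain at W1, 10 were called at D0 and 11 at W6. *Barx2*, a homeobox gene of the hair follicle, went from 13 peaks over 12.8 kb to 19 over 27.2 kb, with 12 W2-only and 3 W1-only. *Foxp1* had 12 W2-only and 5 W1-only peaks, *Tcf7l2*, a nuclear effector of Wnt signalling, 11 and 6, and *Gli2*, an effector of Hedgehog signalling, 9 and 6. In the same list *Sox6*, a SOX family gene, was on the losing side, from 17 peaks to 5 with 15 W1-only and 3 W2-only. So was *Nfia*, from 17 peaks to 11 with 9 W1-only and 4 W2-only. *Runx1*, which encodes a factor of hair follicle stem cell activation, went from 34 to 29 peaks, but from 30.4 kb to 45.8 kb. It had 8 W1-only peaks and 12 W2-only peaks, of which none was called at D0 and 7 at W6.

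*Lhx2* and *Shisa2* were called almost at W2 alone. *Lhx2*, a homeobox gene that maintains hair follicle stem cells, had no peak nearest to it at D0, W1, W6 or W12 and 5 at W2. Their folds were 4.21 to 5.61, below the median fold of the W2 list, and all 5 lay on an H3K4me1 domain at W1. *Shisa2*, which encodes an inhibitor of Wnt and FGF receptors, had 1 peak at W1 and 9 at W2, of which 8 were W2-only with folds up to 7.02. None of the 8 was called at D0, W6 or W12, and 4 lay on an H3K4me1 domain at W1. *Foxc1*, a forkhead factor of hair follicle stem cells, had a weak peak of 637 bp and a fold of 3.85 at W1 within its gene and a peak of 7068 bp and a fold of 11.2 across its start at W2. Of the peaks nearest to it 5 were W2-only and 6 W1-only. Near *Gas1*, the gene of a Hedgehog co-receptor, lay the third of the strongest W2-only peaks, chr13:60318407-60319492, 141 kb from the start with a fold of 18.9. It was called at W6 and W12 and not at D0.

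Epidermal transcription factors were divided. As a list they had 35.6% W2-only (30.5% to 40.9%) and 42.2% W1-only peaks (37.3% to 47.2%), against 34.8% and 37.0% of all. *Trp63*, which encodes the p63 factor of basal epidermal and follicle cells, had 28 peaks over 27.4 kb at W1 and 39 over 43.0 kb at W2. Of the W2 peaks 23 were W2-only, all on an H3K4me1 domain at W1, with folds up to 7.02, and 10 of the W1 peaks were W1-only. *Gata3*, a factor of epidermal differentiation and of the inner root sheath, had 41 peaks over 51.9 kb at W1 and 28 over 43.2 kb at W2, with 26 W1-only and 11 W2-only. Its W1-only peaks had folds up to 6.93, and 11 of the 26 were called at D0 and 4 at W6. The widest W1 peak, 19781 bp at *Gata3*, was overlapped by 4 W2 peaks. *Klf5* had 11 W1-only and 5 W2-only peaks, *Ahr*, the gene of a ligand-activated receptor, 11 and 4, and *Klf4* 8 and 7.

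**Figure D5:**
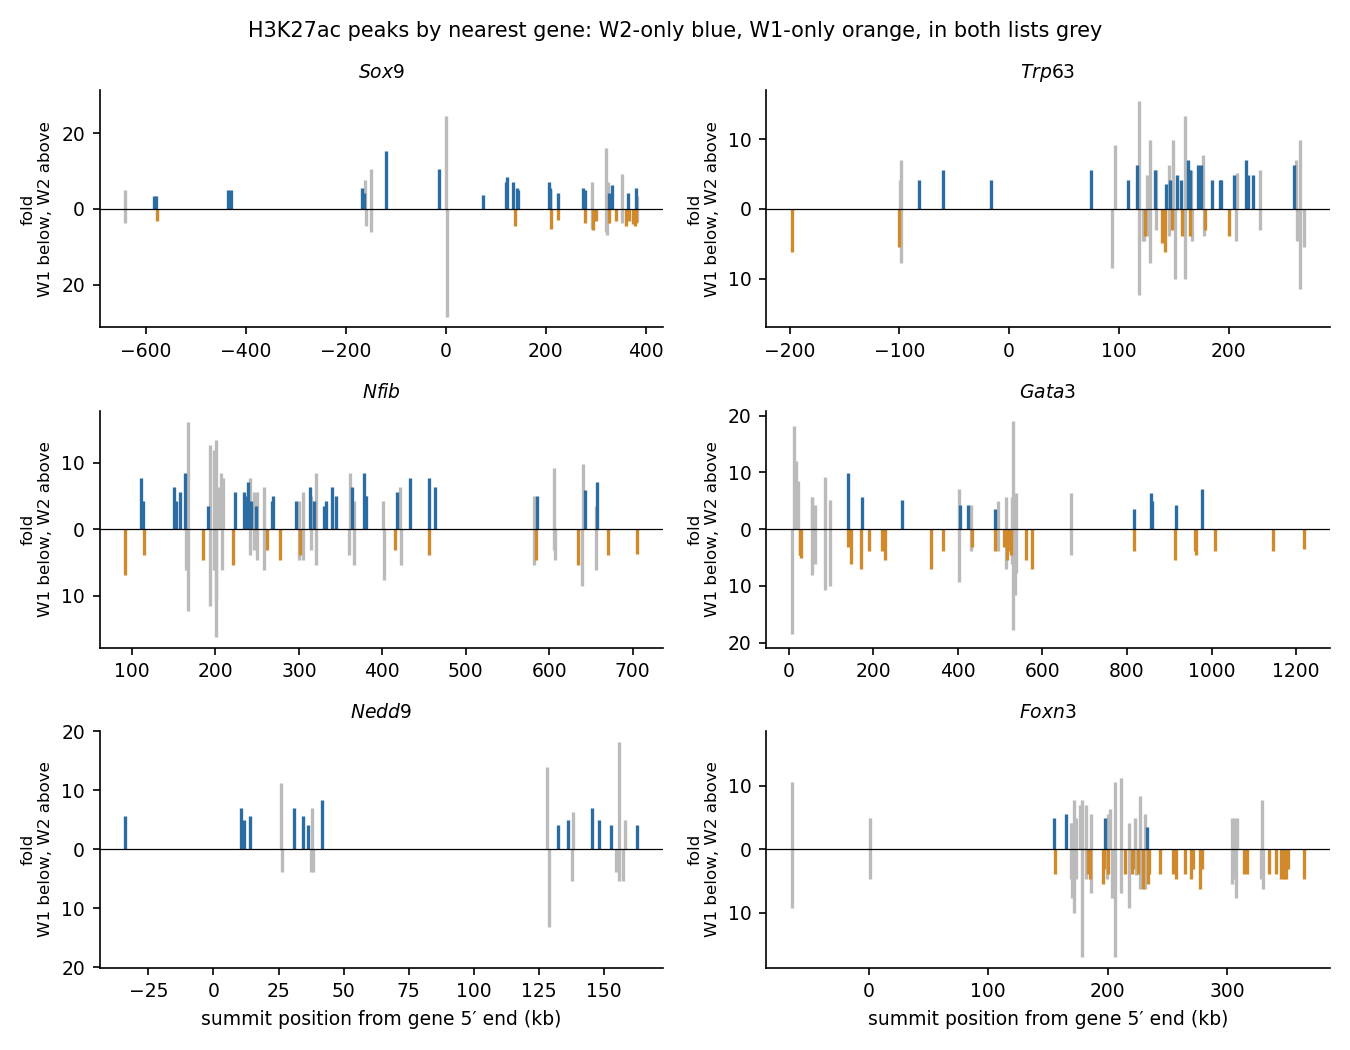
H3K27ac peaks nearest to 6 genes, placed by the distance of the summit from the gene's 5′ end (kb, positive in the direction of the gene), with fold at W2 drawn upward and at W1 downward; W2-only peaks are blue, W1-only peaks orange and shared peaks grey. At *Nedd9* 14 peaks are blue and none is orange, and at *Foxn3* 30 are orange and 4 blue.

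Epidermal differentiation genes kept about the same number of peaks, 70 at W1 and 68 at W2, with 39.7% W2-only (27 peaks) and 34.3% W1-only (24 peaks), near the 34.8% and 37.0% of all peaks. The keratin pair of the suprabasal layers had peaks at W1 that W2 lacked. *Krt1* had 2 peaks at W1, both called at D0, and none at W2, and the stronger, chr15:101855925-101857458, had a fold of 8.47 and was called again at W6 and W12. Near *Krt10* the peak chr11:99391105-99391766, 1741 bp from a start site, had a fold of 11.6 at W1, was called at D0 and W6 and was missing at W2. *Krt10* nonetheless had 2 peaks at each week, and a peak within 1000 bp of a start site at both. Of the genes of the cornified envelope, *Lor* went from 3 peaks to 1 and *Tgm3* from 4 to 1. The strongest W1-only peak near *Lor* was weak, with a fold of 3.85 where the median of the W1 list was 5.39. It lay 14.4 kb from the start and was called in no other list. A peak over the start of *Lce6a*, another gene of that envelope, was among the 10 strongest W1-only peaks, with a fold of 10.8, and was also called at D0. In contrast *Abca12*, a lipid transporter of the skin barrier, had 7 W2-only and 5 W1-only peaks, and *Ivl* and *Tgm1* had a peak within 1000 bp of a start site at W2 and not at W1. *Krtdap* went from 5 peaks to 7, *Casp14* and *Klk5* from 2 to 4 and *Dsg1b* from 1 to 3. Each of these had 2 W2-only peaks and no W1-only peak.

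Basal layer and adhesion genes had 29.1% W2-only (22.3% to 36.7%) and 24.6% W1-only peaks (18.6% to 31.4%), against 34.8% and 37.0% of all peaks, and the first interval holds the share of all peaks. *Cd44*, an adhesion receptor, had 12 W2-only and 6 W1-only peaks, and *Itga6* 6 and 3. The peak over *Krt14*, whose promoter drives rtTA, was 7600 bp wide at W1 and 7695 bp at W2, with folds of 14.6 and 22.4. Cytoskeleton and migration genes had 32 of 75 W2 peaks W2-only, 42.7% (31.3% to 54.6%), and 11 of 61 W1 peaks W1-only, 18.0% (9.4% to 30.0%), and here too the W2-only interval holds the 34.8% of all peaks. Most of the W2-only peaks lay near *Tnc*, the gene of the matrix protein tenascin C, which went from 4 to 13 peaks with 10 W2-only, and near *Actn1*, the gene of an actin crosslinker, which went from 8 to 14 with 7 W2-only and folds up to 11.9. *Tnc* and *Fscn1*, the gene of an actin bundler, had a peak within 1000 bp of a start site at W2 and not at W1. *Nedd9*, the gene of a focal adhesion scaffold, is in no list and was singled out after its values were seen. It went from 8 peaks over 6.37 kb to 20 over 25.6 kb, with 14 W2-only, all on an H3K4me1 domain at W1, and no W1-only peak.

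The signalling pathways held genes with mostly W2-only and genes with mostly W1-only peaks, and each list is set against the 34.8% W2-only and 37.0% W1-only of all peaks. In the Hedgehog list 44.1% of W2 peaks were W2-only (30 of 68; 32.1% to 56.7%) and 46.6% of W1 peaks W1-only (34 of 73; 34.8% to 58.6%), and both intervals hold the share of all peaks. W2-only peaks were most numerous near the coreceptor gene *Boc* (10 W2-only, of which 8 were called at W6, and 5 W1-only), near *Gli2* (9 and 6) and near the coreceptor gene *Gas1* (6 and 4). W1-only peaks were most numerous near the coreceptor gene *Cdon* (1 and 8), and the ligand gene *Shh* had 0 and 3. In the Wnt list 54 of 134 W2 peaks (40.3%) were W2-only and 76 of 164 W1 peaks (46.3%; 38.5% to 54.3%) W1-only, the latter against 37.0% of all W1 peaks. *Wnt3*, the gene of a ligand, had the most W1-only peaks of the list and went from 10 peaks to 1 with 9 W1-only. The Wnt receptor gene *Fzd7* went from 8.76 kb to 16.6 kb with 7 W2-only peaks, and the stem cell receptor *Lgr6* from 9 peaks to 2 with 8 W1-only. The promoter peak of *Wnt3*, *Wnt3a* and *Wnt10b*, which encode ligands, was called at W1 and not at W2, and that of *Wnt4* at D0 and W2 and not at W1. In the TGF-beta and BMP list 38.1% of W2 peaks were W2-only (53 of 139; 30.0% to 46.8%) and 41.4% of W1 peaks W1-only (70 of 169; 33.9% to 49.2%), intervals that hold the shares of all peaks. *Tgfbr2*, the gene of a TGF-beta receptor, had 10 W1-only and 3 W2-only peaks, *Bmp4* lost its promoter peak, and the activin gene *Inhba* and its antagonist *Fst* had 7 W2-only peaks each. The Notch list had 41.6% W2-only (52 of 125) and 35.8% W1-only peaks (43 of 120), the EGF receptor list 41.4% (43 of 104) and 29.8% (28 of 94), and the cell cycle list 39.8% (35 of 88) and 33.0% (29 of 88). The intervals of these 3 lists also hold the shares of all peaks. *Egfr* had 13 W2-only and 7 W1-only peaks, its negative regulator *Lrig1* 13 and 10, and *Myc*, a proliferation factor, 16 and 7.

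Against the same 34.8% and 37.0%, the AP1 factor genes had 29.4% W2-only (15 of 51) and 25.9% W1-only peaks (15 of 58, 11 of these near *Fosl2*). The RUNX list had 43.9% (18 of 41) and 28.3% (13 of 46), and stress keratins and wound response genes 27.3% (6 of 22) and 15.4% (4 of 26). Cofactors and remodellers bound by SOX9 had 23.9% W2-only (11 of 46) and 35.4% W1-only peaks (23 of 65), and 17 of the 23 lay near *Arid1b*, a subunit of a chromatin remodelling complex. The intervals of these lists hold the shares of all peaks, with 1 exception. It is the W1-only share of stress keratins and wound response genes (4.4% to 34.9%). The other genes with most W2-only peaks were *Efna5*, which encodes an ephrin (19 W2-only, 11 W1-only), and *Bnc2* and *Lpp* (17 W2-only each), of which *Bnc2* encodes a zinc finger protein. The genes with most W1-only peaks were *Foxn3*, a forkhead gene, *Gata3*, *Fgfr2*, the gene of a receptor of fibroblast growth factors, *Rxra*, the gene of a retinoid receptor, and, with equal numbers, *Med13l* and *Pard3*. *Foxn3* went from 53 peaks over 51.6 kb to 26 over 25.1 kb. Of its 30 W1-only peaks 17 were called at D0, 3 at W6 and 7 at W12, and all 30 lay on an H3K4me1 domain at W2. *Fgfr2* had 24 W1-only peaks and *Rxra* 22, of which 8 each were called at D0. *Med13l* and *Pard3* had 20 each.

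At promoters, counted as a peak within 1000 bp of a start site, 1054 of 21911 protein-coding genes were called at W2 and not at W1 (4.81%), and 853 at W1 and not at W2 (3.89%). Of the 325 list genes it was 26 (8.0%) and 13 (4.0%). Called at W2 and not at W1 were, of the hair follicle transcription factors, *Lhx2*, *Tcf7l1*, *Tbx1*, *Foxc1* and *Trps1*, and at W1 and not at W2 *Gli1*, the transcriptional target and effector of Hedgehog signalling. Of the epidermal factors *Gata6*, *Ovol2* and *Prdm1* were called at W2 and not at W1, and none the other way round. Of the cell cycle genes it was *Ccna2*, *Cdk1* and *Mycn*, and *Mki67* the other way round. *Foxc1*, *Ovol2* and *Cdk1* also had a promoter peak at D0, so that the W1 list lacked what D0 and W2 held.

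Most of the 10 strongest W2-only peaks were also called at other times: 8 overlapped a D0 peak and all 10 a W6 peak. The strongest, chr19:61266645-61267033, had a fold of 26.1 over 389 bp and lay between genes, 30.0 kb from *Gm21060*. Peaks over the start of *Baz1a*, *Fgfr1op* and *Ifnar2* were of this kind, with folds of 16.8, 16.1 and 16.1. The peaks near *Gas1* and *Tenm4* were the 2 that D0 lacked. Of the 10 strongest W1-only peaks 9 overlapped a D0 peak and 7 a W6 peak. They included peaks over the start of *Ptprz1* (fold 12.3, the 1 that D0 lacked), *Prpf3* (fold 12.3), *Snx15* (fold 11.6) and *Lce6a* (fold 10.8). The part of poorly mapped regions in the strongest peaks of either class was not tested.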

How the data were processed

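H3K27ac and H3K4me1 were read by MINT-ChIP in sorted EpdSCs. Per the labels and the study's methods, the authors aligned paired reads to mm10 with Bowtie2 (2.2.9), removed duplicates with Picard, merged replicates with SAMtools (1.9) and called H3K27ac peaks with MACS2 (2.1.1) on data pooled from 2 replicates. The labels name SICER (0.0.36) and the methods epic2 for H3K4me1 domains. The deposited peak lists give a score, a fold enrichment (a ratio to background), a −log10 p-value and a −log10 q-value for each peak. Read totals were not used here, and depth was recovered from the steps of the fold. With a single genome-wide background for each list, 94.4% of W1 and 95.8% of W2 peaks lay within 0.01 of a whole pileup. No pileup of replicates could be separated, so no p-value was computed.

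Peaks on 21 chromosomes were compared in Python 3.11.15 (pandas 2.3.3, NumPy 2.4.6, SciPy 1.17.1, matplotlib 3.10.9). A peak was shared at an overlap of at least 1 bp and distal beyond 2500 bp of any start site of the GRCm38 annotation. The overlap, distance and nearest-gene steps were tested on simulated peaks. Genes were named by fixed rules: the 5 genes with most W2-only and most W1-only peaks (ties included), list members with at least 1 unshared peak, as a rule those with most first, the 10 strongest peaks of each class and the 5 pairs with the largest change each way. Within the lists *Lhx2*, *Klf4*, *Itga6*, *Lor*, *Krtdap*, *Casp14*, *Klk5*, *Dsg1b*, *Fscn1*, *Shh* and *Lgr6* were singled out after their values were seen. Of the 10 strongest peaks of each class and the 5 pairs higher at W2, only some are named. The choice among them, *Socs3* included, was made with their values known. The members, gene lists and motifs were chosen with earlier results of these data known. Alternatives were the overlap, the q and fold limits, lists of equal length, joined peaks, the distal limit, the motif window, the gene assignment and leaving out the sex chromosomes.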

Additional observations from a re-analysis of the deposited data

How the results depend on the processing

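No paired analysis was possible because every list pools its replicates, and no replicate could be left out. Of 208 alternative values 122 stayed within the interval or limit set for the reported value and 86 did not, and none turned a direction between the classes among those followed (D0, W6, W12, distal share, width, fold and hair follicle transcription factors). The order of the W2-only and W1-only shares of their lists did turn, as given above, with the q limit, with lists of equal length and above the median fold (10.9% against 8.14%). So did the order of the H3K4me1 shares (91.0% against 88.9% as reported) with the q limit, with lists of equal length and above the median fold, and that of the AP1 letters in 200 bp (7.18% against 7.13%) with the q limit (6.86% against 7.23%) and with lists of equal length (7.06% against 7.25%). The cause of the moves was not tested. Values are given for W2-only, then W1-only peaks.

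Requiring an overlap of 50% of the shorter peak gave 73.2% and 75.4% distal, median widths of 518 and 458 bp, 29.6% and 31.8% on D0 peaks, 41.3% and 26.98% on W6 peaks, 23.8% and 17.3% on W12 peaks, and 91.8% on H3K4me1 of W1 and 90.1% on that of W2. Requiring −log10 q of at least 2 gave 73.3% and 76.1% distal, widths of 540 and 484 bp, a W1-only median fold of 4.62, 29.5% and 34.0% on D0, 42.6% and 26.5% on W6, 24.1% and 17.2% on W12, and 92.0% and 92.6% on H3K4me1. Peaks above the median fold of their list left 1431 and 1035 peaks, with 65.5% and 69.4% distal, widths of 792 and 690 bp, median folds of 7.72 and 6.16, 45.0% and 59.7% on D0, 68.2% and 47.3% on W6, 38.3% and 30.7% on W12, 92.5% and 96.5% on H3K4me1, AP1 letters in 6.13% of distal W1-only peaks, and 25.8% and 13.1% of the peaks of hair follicle transcription factors. Lists of equal length gave widths of 513 and 481 bp and, for W1-only peaks, a median fold of 4.44, 33.2% on D0, 25.4% on W6, 16.8% on W12 and 91.9% on H3K4me1. Joining peaks less than 1000 bp apart gave 76.2% and 79.1% distal, widths of 529 and 449 bp, 22.9% of W2-only on W12, 21% of W1-only on W6, and 89.8% and 86.9% on H3K4me1; fold and motifs have no value there. A distal limit of 1000 bp gave 82.3% and 85.6%, and one of 10000 bp 50.3% and 50.9%. A window of 500 bp gave AP1 letters in 22.7% and 19.3%. Peaks within 50000 bp of hair follicle transcription factor genes were unshared in 46.3% and 35.8%.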

Other observations

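The widest W2 peak, chr9:3000029-3038391, spanned 38363 bp next to *Gm10719* and overlapped 11 W1 peaks, the most under any W2 peak. Regions where reads map poorly were not filtered out here, and whether this peak lies in such a region was not tested. On chromosome Y 16 W2 and 5 W1 peaks were called, of which 12 and 1 were unshared.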
